A study of Mus musculus with 10 samples.

Results

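Tmem119, Sall1, Siglech, Olfml3, P2ry12, Sparc, Gpr34, P2ry13 and Cx3cr1 are 9 genes by which microglia, the macrophages of the brain tissue itself, are commonly recognised. They were looked up by symbol in the deposited count table of a sort of CNS-associated macrophages, the macrophages that line the borders of the brain. All 9 were among its 53546 genes, and all 9 were among the 14023 genes with enough counts to be tested. The mice were untreated C57BL/6N animals aged 6 to 8 weeks. In the Cre-Cre group, 4 mice carried Mrc1-CreERT2 on both chromosomes (Mrc1-CreERT2/Mrc1-CreERT2). In the Cre-pos group, 3 mice carried it on a single chromosome (Mrc1-CreERT2/wt), and 3 wild-type mice (WT) carried none. CreERT2 is a recombinase that acts only once tamoxifen or a similar ligand is given, and the allele places it at Mrc1, which encodes CD206, a mannose receptor that border macrophages carry. The labels name no floxed target gene in any group. Each library came from 500 pg of total RNA of sorted cells, and the labels do not describe how the sort was gated. The comparisons ask how the number of Mrc1-CreERT2 alleles relates to transcript levels in the sorted cells.

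Microglia and border macrophages both descend largely from yolk-sac progenitors and both depend on signalling through the receptor Csf1r, so they share much of their transcriptome. Microglia keep their own programme with the help of TGF-beta signalling and of the transcription factor Sall1, and they survey the tissue with purinergic receptors that sense nucleotides released by damaged cells. Tmem119, Sall1 and Siglech are regarded as restricted to microglia among brain macrophages. Olfml3, P2ry12, Sparc and Gpr34 are enriched in microglia, and P2ry13 and Cx3cr1 are carried by border macrophages as well.

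The promoters of 4 members are shown as examples of a contrast in the results: Siglech and Olfml3 were lower in every Cre-Cre library than in every WT library, and P2ry13 and Cx3cr1 were not. Sall1 was lower in the same way, but has 3 start sites in the promoter table and is not printed. RefSeq promoters on GRCm38.p6, 250 bases before to 50 after the start of transcription, matched 7 of the 9 members. Tmem119 and Gpr34 had no entry. Capitals mark a match, on either strand, to the PU.1 core GAGGAA or to CTANNNNTAG, a loose form of the MEF2 motif. N stands for any base, so a match need not be a site that MEF2 binds. PU.1 and MEF2 are factors of macrophage and microglial identity. The regions are chr7:55767934-55768233 on the plus strand for Siglech, and chr3:103737952-103738251, chr3:59210833-59211132 and chr9:120068247-120068546 on the minus strand for Olfml3, P2ry13 and Cx3cr1.
Siglech: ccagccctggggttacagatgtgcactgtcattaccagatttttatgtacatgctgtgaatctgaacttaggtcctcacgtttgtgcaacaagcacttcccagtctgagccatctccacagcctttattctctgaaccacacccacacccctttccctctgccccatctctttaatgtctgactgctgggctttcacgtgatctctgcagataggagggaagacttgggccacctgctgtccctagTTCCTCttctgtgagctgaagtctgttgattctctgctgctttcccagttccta
Olfml3: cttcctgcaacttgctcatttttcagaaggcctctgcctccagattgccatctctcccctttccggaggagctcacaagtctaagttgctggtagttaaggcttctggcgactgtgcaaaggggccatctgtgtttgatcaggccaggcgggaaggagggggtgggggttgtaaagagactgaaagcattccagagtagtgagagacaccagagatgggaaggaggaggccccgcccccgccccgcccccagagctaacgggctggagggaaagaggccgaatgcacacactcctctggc
P2ry13: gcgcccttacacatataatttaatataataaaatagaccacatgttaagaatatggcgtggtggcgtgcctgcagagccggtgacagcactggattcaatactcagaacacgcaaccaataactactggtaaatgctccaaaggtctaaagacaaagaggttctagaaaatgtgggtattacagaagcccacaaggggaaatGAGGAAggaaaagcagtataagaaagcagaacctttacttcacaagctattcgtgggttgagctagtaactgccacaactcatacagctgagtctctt
Cx3cr1: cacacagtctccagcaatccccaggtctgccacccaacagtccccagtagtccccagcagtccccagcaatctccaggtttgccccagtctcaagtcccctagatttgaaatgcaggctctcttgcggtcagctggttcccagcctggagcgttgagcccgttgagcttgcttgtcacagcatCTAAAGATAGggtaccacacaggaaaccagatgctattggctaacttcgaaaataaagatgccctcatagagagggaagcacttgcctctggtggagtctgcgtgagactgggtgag

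Counting the start site as 0, the PU.1 core began at -4 on the opposite strand in Siglech and at -48 on the same strand in P2ry13. The loose MEF2 pattern, here CTAAAGATAG with a G in its centre, began at -67 in Cx3cr1. In the Olfml3 window neither motif was present, nor was the SMAD palindrome GTCTAGAC or the MAF site TGCTGAC. Of 32851 promoters of this length, 28.3% held the PU.1 core, 3.69% the loose MEF2 pattern, 0.213% the SMAD palindrome and 4.67% the MAF site. The matches are letters in a window and were not linked to the levels below.

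Per kilobase of exon, the member with the highest level was Cx3cr1, the receptor for neuronal fractalkine. It averaged 539 counts per kilobase, scaled to 1000000 counts per library (CPM), in Cre-Cre, 673 in Cre-pos and 606 in WT libraries. P2ry13, a receptor for ADP, ranged from 339 to 453 CPM per kilobase in Cre-Cre, 354 to 401 in Cre-pos and 238 to 461 in WT libraries. Gpr34, a receptor for lysophosphatidylserine, averaged 291, 351 and 339 CPM per kilobase in the same order of groups. P2ry12, the ADP receptor that steers microglial processes, averaged 235, 317 and 318. Within each group, the ranges of P2ry13, Gpr34 and P2ry12 overlapped in pairs, except that P2ry13 lay above P2ry12 in every Cre-Cre library.

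Further down the order, Tmem119, a surface protein of microglia, averaged 47.8 CPM per kilobase in Cre-Cre, 164 in Cre-pos and 206 in WT libraries. Sparc, a secreted matrix protein, averaged 22.8, 62.5 and 87.5 CPM per kilobase. Olfml3, a secreted olfactomedin-domain protein, averaged 23.5, 63.2 and 81.6. Siglech, a sialic acid-binding receptor, averaged 22.1, 40.5 and 44.2, and Sall1 stood lowest at 0.56, 3.08 and 3.86. The ranges of Sparc, Olfml3 and Siglech overlapped within each genotype, and these genes were not compared library by library. Lengths are those of all exons of a gene in GENCODE vM21, and the isoforms present are not known from these counts.

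Library totals ran from 22986972 to 36575446 counts, so even Sall1, the scarcest member, rested on 63 to 849 counts per library. Mrc1 averaged 489 CPM in Cre-Cre, 2153 CPM in Cre-pos and 3481 CPM in WT libraries, and its groups did not overlap. The labelled cell type was checked with 20 markers of border macrophages, all of which were tested. Their summed level was 71633 to 80565 CPM in Cre-Cre, 62436 to 78676 CPM in Cre-pos and 63051 to 72920 CPM in WT libraries. The most abundant were Apoe, Lyz2, Dab2 and F13a1, and the lowest library of F13a1 still held 2134 CPM. Apoe averaged 41702, 40806 and 36278 CPM and Lyz2 9814, 12026 and 10956 CPM in Cre-Cre, Cre-pos and WT libraries. Apoe and Lyz2 thus made up most of the sum. A list of 34 further microglia genes, given below, summed to 57031 to 72378 CPM, so these sums do not tell border macrophages from microglia. In bulk RNA, fewer microglia in a sort and less of a transcript per cell cannot be told apart.

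**Figure D1:**
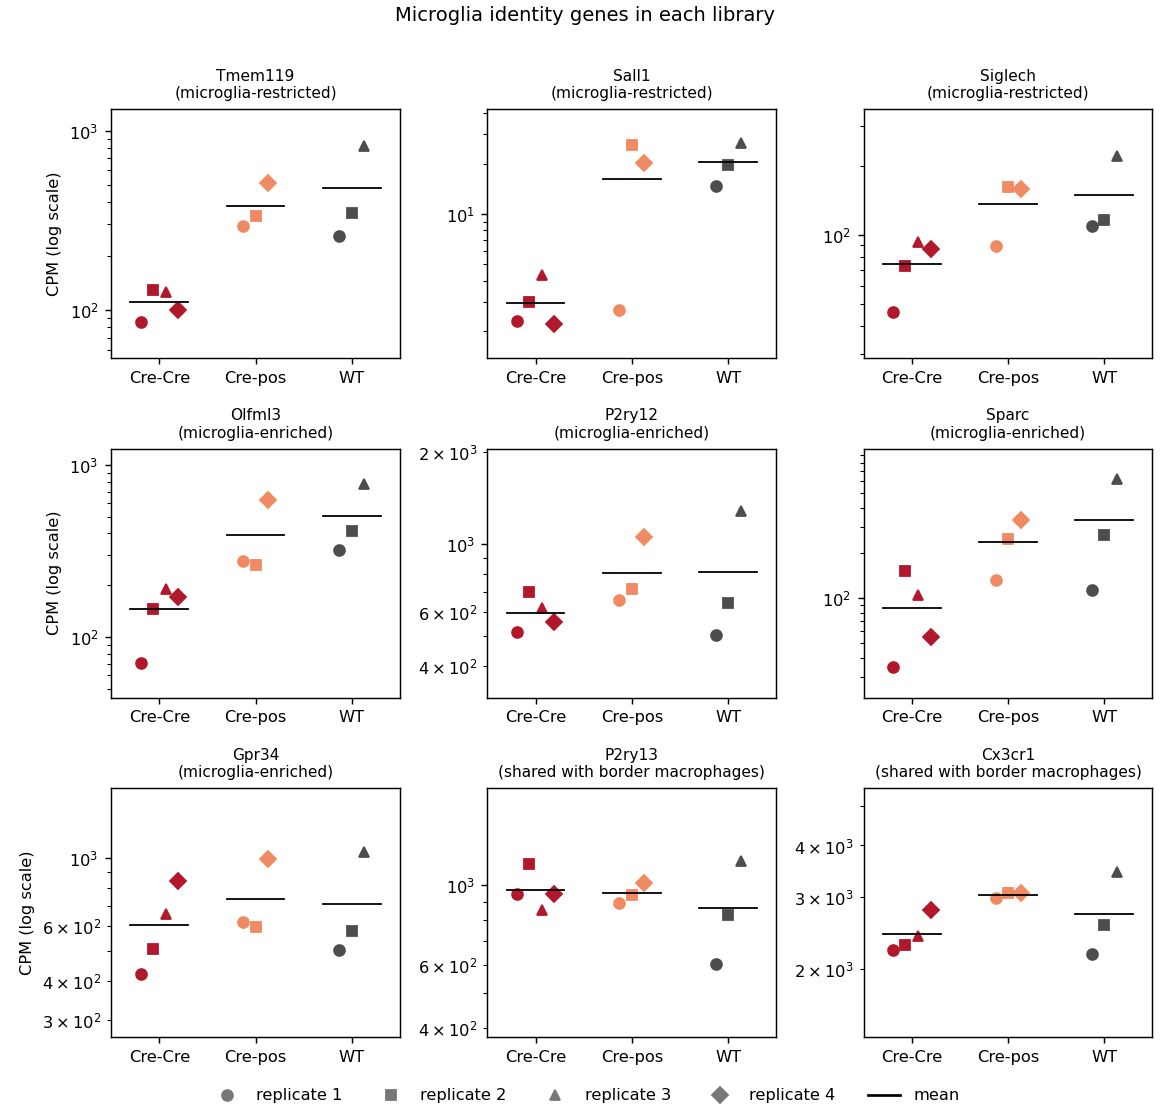
Level of each member in CPM (log scale) in the 4 Cre-Cre, 3 Cre-pos and 3 WT libraries. Points are libraries, shaped by replicate number, and lines are group means. Tmem119 and Olfml3 in the Cre-Cre libraries lie below all 6 other libraries, and WT 3 is the highest library in all 9 panels.

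Among the microglia-restricted members, Tmem119 was at 86.2, 130.2, 127 and 100 CPM in the Cre-Cre libraries. It was at 294, 336 and 512 CPM in Cre-pos libraries and at 258, 346 and 824 CPM in WT libraries. All 4 Cre-Cre libraries were below all 6 others, while Cre-pos and WT overlapped. The Cre-Cre mean was 23.3% of the WT mean, a log2 fold change of -2.10 ± 0.37 (SE) and edgeR's test gave an adjusted p of 0.115. The difference did not pass the threshold of an adjusted p under 0.05, and Tmem119 ranked 20 of 14023 genes by p.

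Sall1, the zinc-finger factor that keeps microglia from adopting other macrophage programmes, was at 2.29, 3.00, 4.30 and 2.2 CPM in Cre-Cre libraries. It was at 2.67, 26.0 and 20.03 CPM in Cre-pos libraries, and at 14.8, 19.8 and 26.4 CPM in WT libraries. The 4 Cre-Cre libraries and Cre-pos 1 formed a low set, and the other 5 libraries lay well above them. Sall1 in Cre-pos 1 rested on 85 counts, against 843 and 464 in the other Cre-pos libraries. The log2 fold change of Cre-Cre over WT was -2.78 ± 0.70 (edgeR, adjusted p = 0.362). For Cre-pos over WT it was -0.33 ± 0.73 (edgeR, adjusted p = 1) and, without Cre-pos 1, it was 0.17.

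Siglech was at 46.1, 73.0, 93.3 and 87.2 CPM in Cre-Cre libraries, at 89.2, 163 and 159 CPM in Cre-pos libraries, and at 109, 116 and 223 CPM in WT libraries. Cre-Cre and WT did not overlap, and Cre-pos 1 again lay within the Cre-Cre range. The Cre-Cre mean was 50.1% of the WT mean, with a log2 fold change of -1.0 ± 0.33 (edgeR, adjusted p = 0.572). Siglech is also a marker of plasmacytoid dendritic cells. Of 11 other genes of those cells, 7 were tested, Ly6d and Klk1 had no count in any library, and the summed level was 745 to 855 CPM in Cre-Cre, 707 to 759 CPM in Cre-pos and 756 to 870 CPM in WT libraries. Bst2 and Tcf4 carried nearly all of that sum, and no other gene of the list exceeded 18.9 CPM in any library.

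Olfml3, among the microglia-enriched members, was at 71.0, 146, 190.1 and 172 CPM in Cre-Cre libraries. It was at 278, 261 and 629 CPM in Cre-pos libraries and at 320.5, 411 and 777 CPM in WT libraries. As for Tmem119, all 4 Cre-Cre libraries were below the other 6. The Cre-Cre mean was 28.8% of the WT mean, with a log2 fold change of -1.80 ± 0.43 (edgeR, adjusted p = 0.323).

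Sparc had the widest spread, at 34.6, 151, 105 and 54.7 CPM in Cre-Cre libraries, 132, 248 and 329 CPM in Cre-pos libraries, and 113, 262 and 619.8 CPM in WT libraries. The highest Cre-Cre library exceeded the lowest library of each other genotype. The log2 fold change of Cre-Cre over WT was -1.94 ± 0.61 (edgeR, adjusted p = 0.539). Sparc is made by endothelial cells and fibroblasts too. Summed endothelial markers were at 71.4 to 127 CPM in Cre-Cre, 67.3 to 89.9 CPM in Cre-pos and 64.0 to 85.7 CPM in WT libraries, most of it Egfl7, with Cldn5, Esam, Ly6c1, Emcn and Tek among 12 markers at 0 throughout. Those of meningeal fibroblasts and pericytes were at 6.97 to 17.9 CPM in Cre-Cre, 2.81 to 13.9 CPM in Cre-pos and 8.34 to 24.9 CPM in WT libraries, with Kcnj8 and Rgs5 of 12 at 0 throughout.

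P2ry12 was at 519, 698, 617 and 557 CPM in Cre-Cre libraries, at 657, 714 and 1053 CPM in Cre-pos libraries, and at 504, 645 and 1281 CPM in WT libraries. The groups overlapped, and WT held both the lowest and the highest library. The log2 fold change of Cre-Cre over WT was -0.44 ± 0.29 (edgeR, adjusted p = 0.881). Gpr34 was at 421, 509, 660.0 and 839.7 CPM in Cre-Cre libraries, at 619, 598 and 986 CPM in Cre-pos libraries, and at 505, 578 and 1045 CPM in WT libraries. Its groups overlapped too, with a log2 fold change of Cre-Cre over WT of -0.22 ± 0.31 (edgeR, adjusted p = 0.999) and a 95% interval from -0.82 to 0.37.

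Of the members shared with border macrophages, P2ry13 was at 944, 1145, 856 and 946 CPM in Cre-Cre libraries, at 895, 939 and 1013 CPM in Cre-pos libraries, and at 603, 824 and 1165 CPM in WT libraries. The Cre-Cre and Cre-pos libraries lay within the WT range. Its log2 fold change of Cre-Cre over WT was 0.17 ± 0.19 (edgeR, adjusted p = 0.999), with a 95% interval from -0.20 to 0.54. It was the sole member fitted above 0 in that comparison.

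Cx3cr1 was at 2229, 2285, 2412 and 2781 CPM in Cre-Cre libraries, at 2974, 3055 and 3067 CPM in Cre-pos libraries, and at 2179, 2563 and 3448 CPM in WT libraries. The 3 Cre-pos libraries were close together and above all 4 Cre-Cre libraries, and WT spanned both. The log2 fold change was -0.17 ± 0.14 for Cre-Cre over WT (edgeR, adjusted p = 0.972), with a 95% interval from -0.44 to 0.10. For Cre-Cre over Cre-pos it was -0.32 ± 0.14 (edgeR, adjusted p = 1).

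**Figure D2:**
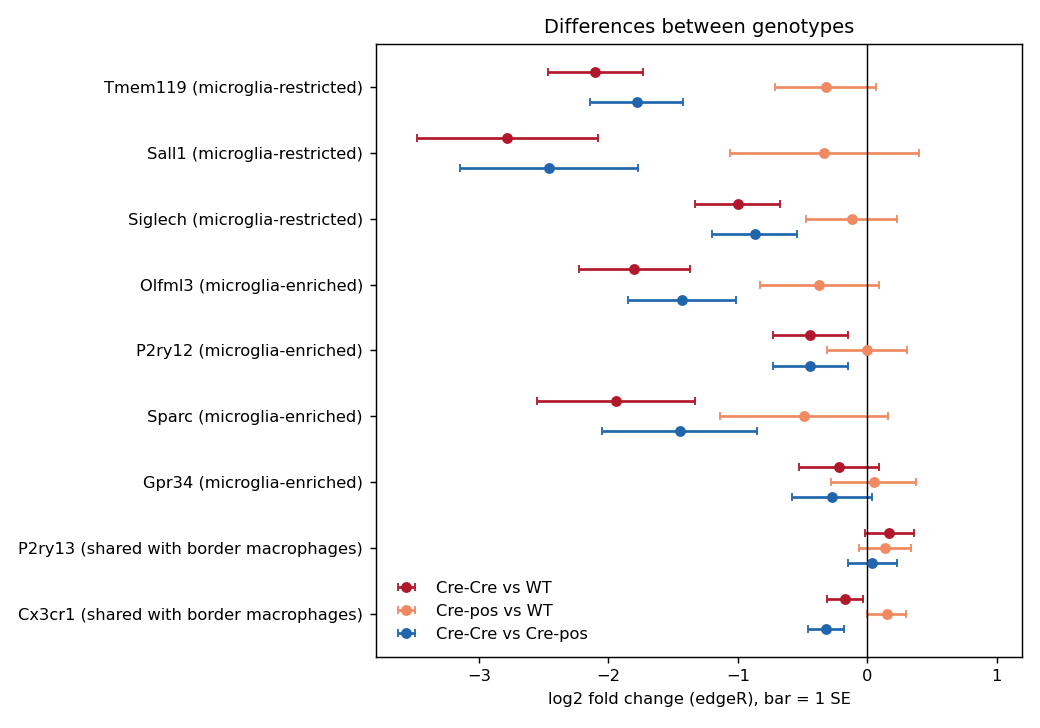
Fitted log2 fold change (edgeR) of the 9 members, with bars of 1 SE, for Cre-Cre over WT, Cre-pos over WT and Cre-Cre over Cre-pos. Values of Cre-Cre over WT run from -2.78 for Sall1 to 0.17 for P2ry13, and those of Cre-pos over WT from -0.49 for Sparc to 0.15 for Cx3cr1; none passed the adjusted threshold.

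Across the list, 0 of 9 members passed the adjusted threshold in Cre-Cre over WT, where 0.0642% of all tested genes did. At an unadjusted p under 0.05, 5 of 9 members were lower in Cre-Cre (Tmem119, Sall1, Siglech, Olfml3 and Sparc), against 2.96% of all genes. The median log2 fold change was -1.0 over the members and 0.02 over all tested genes, and 8 of 9 members were fitted below 0, against 48.9% of all genes. In 4 of 9 members, Tmem119, Sall1, Siglech and Olfml3, every Cre-Cre library was below every WT library, against 3.57% of all genes. An exact two-sided permutation test of the difference in mean log2 CPM between Cre-Cre and WT gave p = 0.0286, unadjusted, for those 4 members, the smallest that the 35 splits of these libraries allow. They are the members whose groups did not overlap, so that p restates the separation and is no further support. Sparc gave an exact permutation p of 0.114 and the other members 0.4 to 0.6. Under other settings some members passed: DESeq2 called Tmem119, Sall1 and Olfml3 (adjusted p = 2.02e-07, 0.00509 and 0.017), among 290 called of 14023 genes, and edgeR with the title letter as covariate called Tmem119 and Olfml3 (adjusted p = 0.0433 and 0.0347), among 17 called of 14023.

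By class, the 3 microglia-restricted members had log2 fold changes of -2.10, -2.78 and -1.0 for Cre-Cre over WT. The 4 enriched members split into Olfml3 and Sparc, at -1.80 and -1.94, and P2ry12 and Gpr34, at -0.44 and -0.22. The shared members were at 0.17 and -0.17.

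In Cre-pos over WT, 0 of 9 members passed the adjusted threshold and 0% of all tested genes did. The members' median log2 fold change was -0.12, against 0.01 over all genes, and 6 of 9 were fitted below 0, against 49.1% of all genes. No member was lower at an unadjusted p under 0.05 (2.40% of all genes were), and in none did the groups stand apart with Cre-pos lower (4.16% of all genes). The fitted values were -0.32 ± 0.39 for Tmem119, -0.12 ± 0.35 for Siglech, -0.37 ± 0.46 for Olfml3 and -0.49 ± 0.65 for Sparc (SE, n = 3 each). For Tmem119 the 95% interval ran from -1.08 to 0.44, which leaves room for a difference of either sign, and without WT 3 the value was 0.33.

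In Cre-Cre over Cre-pos, 0 of 9 members passed, against 0.0214% of all tested genes. At an unadjusted p under 0.05, 6 of 9 were lower in Cre-Cre, against 2.2% of all genes: the 5 named above and Cx3cr1. Tmem119 had a log2 fold change of -1.78 ± 0.36 (edgeR, adjusted p = 0.466), Sall1 of -2.46 ± 0.69 and Olfml3 of -1.43 ± 0.42 (edgeR, adjusted p = 0.985 for both). In Tmem119, Olfml3 and Cx3cr1 every Cre-Cre library was below every Cre-pos library (3 of 9, against 3.72% of all genes). The count of 6 was 3 without Cre-Cre 1 or without Cre-pos 2, and 2 without Cre-pos 4. Both comparisons of Cre-Cre use the same 4 libraries, so they are not separate observations.

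With the number of alleles as a numeric term over all 10 libraries, 0 of 9 members passed, against 0.0428% of all tested genes. At an unadjusted p under 0.05, 5 of 9 were lower with more copies, against 2.54% of all genes, and 8 of 9 were fitted below 0, against 49.1%. The log2 change per allele copy was -1.09 ± 0.23 for Tmem119 (edgeR, adjusted p = 0.215), -1.46 ± 0.43 for Sall1 and -0.93 ± 0.23 for Olfml3. Mrc1, by the same fit, had -1.46 ± 0.14 (edgeR, adjusted p = 0.00607). The Cre-pos mean was 79.9% of the WT mean for Tmem119 and 61.8% for Mrc1, and the Cre-Cre mean was 23.3% and 14.1%. Whether the steps of these genes differ was not tested.

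Ratios of counts within a library do not depend on its total. Per 100 counts of Cx3cr1 there were 3.60 to 5.70 counts of Tmem119 in Cre-Cre libraries, 9.90 to 16.7 in Cre-pos libraries and 11.8 to 23.9 in WT libraries. Per 100 counts of P2ry13 there were 9.14 to 14.8 counts of Tmem119 in Cre-Cre libraries, 32.9 to 50.5 in Cre-pos libraries and 42.1 to 70.8 in WT libraries. For both ratios, all Cre-Cre libraries lay below all others. The ratio of Sall1 to Cx3cr1 was 0.0792 to 0.178 per 100 in Cre-Cre libraries, 0.0897 to 0.850 in Cre-pos libraries and 0.678 to 0.771 in WT libraries, where it was the most even of the ratios with Cx3cr1. P2ry12 per 100 counts of Cx3cr1 overlapped, at 20 to 30.5 in Cre-Cre libraries, 22.1 to 34.3 in Cre-pos libraries and 23.1 to 37.1 in WT libraries. Per 100 counts of P2ry13, P2ry12 was at 54.9 to 72.1 in Cre-Cre libraries. It was at 73.5 to 104 in Cre-pos and 78.3 to 110 in WT libraries. All Cre-Cre libraries thus lay below all others, but narrowly, at 72.1 against 73.5, and not with Cx3cr1 as denominator. How many other genes have ratios that separate in this way was not counted. These separations are therefore not read as results about the members.

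The coefficient of variation between libraries was higher in WT than in either other genotype for 7 of the 9 members, the exceptions being Sall1 and Olfml3, and this was not tested. Within WT, all 9 members were lowest in WT 1 and highest in WT 3, and WT 3 was the highest of the 10 libraries for all 9. Tmem119 ranged 3.20-fold within WT, 1.74-fold within Cre-pos and 1.51-fold within Cre-Cre. Over all 10 libraries the highest level was 17.9 times the lowest for Sparc, 12 for Sall1, 10.9 for Olfml3, 9.56 for Tmem119 and 4.84 for Siglech. It was 2.54 for P2ry12, 2.48 for Gpr34, 1.93 for P2ry13 and 1.58 for Cx3cr1. Among the 6443 tested genes with a mean of at least 20 CPM, the median of this fold range was 2.44 and the 90th percentile 5.90.

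Leaving WT 3 out moved all 9 fitted values of Cre-Cre over WT upward. Tmem119 then had a log2 fold change of -1.45 (edgeR, adjusted p = 0.0800) in Cre-Cre over WT, Olfml3 of -1.34, Sall1 of -2.55, Sparc of -1.11 and Siglech of -0.59. P2ry12, Gpr34 and Cx3cr1 turned to 0.06, 0.17 and 0.04. Members fitted below 0 then numbered 5 of 9, and those lower at an unadjusted p under 0.05 numbered 3 of 9. The titles carry a letter m or f. WT 3 is the only WT library with the letter f, so within WT the letter and that library cannot be told apart. Gpr34 was at 660.0 to 1045 CPM in every library lettered f and at 421 to 619 CPM in every one lettered m. Within each genotype, Olfml3 and Cx3cr1 were also higher in every f than in every m library, and the remaining members were not. With the letter as covariate, the SE of Gpr34 in Cre-Cre over WT was 0.12, against 0.31 without it. Whether the letter accounts for the place of WT 3 was not tested. Among libraries lettered m, the Cre-Cre minus WT difference in mean log2 CPM was -1.50 for Tmem119, -2.68 for Sall1, -0.96 for Siglech, -1.83 for Olfml3 and -1.24 for Sparc (n = 2 each). Among those lettered f it was -2.87, -3.07, -1.31, -2.10 and -3.03 for the same genes, with 2 Cre-Cre libraries and 1 WT library. A letter by genotype term for Cre-Cre over WT rests on that 1 WT library. Its unadjusted p was 0.00933 for Tmem119, 0.00383 for P2ry12 and 0.011 for P2ry13, and no member passed after adjustment over all genes (edgeR, lowest adjusted p = 0.577, for P2ry12), which does not show that the letters act alike.

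Likeness between members within a genotype was measured after the mean of each genotype was removed from log2 CPM. Pearson's r was then positive in all 36 pairs of members, with a median of 0.748 and a range from 0.218 to 0.991, but most pairs did not pass the test. Within WT, all 9 members were lowest in WT 1 and highest in WT 3, and this shared order enters every pair. The title letter was not removed, and the permutations moved libraries across letters. WT 3 is lettered f, as is Cre-pos 4, which was the highest Cre-pos library for 7 of 9 members. So a difference between letters can enter these r values and their p-values. The centred r was not measured without WT 3 or between other genes, so whether it is particular to the members was not tested. An exact permutation of libraries within genotypes (864 arrangements) gave an adjusted p under 0.05 for 11 of the 36 pairs. Tmem119 with P2ry12 was the closest pair, with r = 0.991 (exact permutation, adjusted p = 0.0312). Sall1 with Cx3cr1 was the weakest, with r = 0.218 (exact permutation, adjusted p = 0.241). In the 6 Cre-pos and WT libraries alone, 2 of 36 pairs passed: Tmem119 with Sparc, with r = 0.945 and rho = 1, and P2ry13 with Cx3cr1, with r = 0.979 and rho = 1. The exact permutation over 720 arrangements gave an adjusted p of 0.025 for the r of each.

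A difference between genotypes and one between mice of a genotype did not coincide in all pairs. Over all 10 libraries, Tmem119 with P2ry13 had r = 0.125 and rho = 0.176 (permutation, adjusted p = 0.789 and 0.692), and the Cre-Cre libraries were low in Tmem119 and not in P2ry13. Centred by genotype, the same pair had r = 0.844 (exact permutation, adjusted p = 0.0813). The Cre-Cre libraries stand apart for Tmem119, so no pooled r is read as a relation here.

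**Figure D3:**
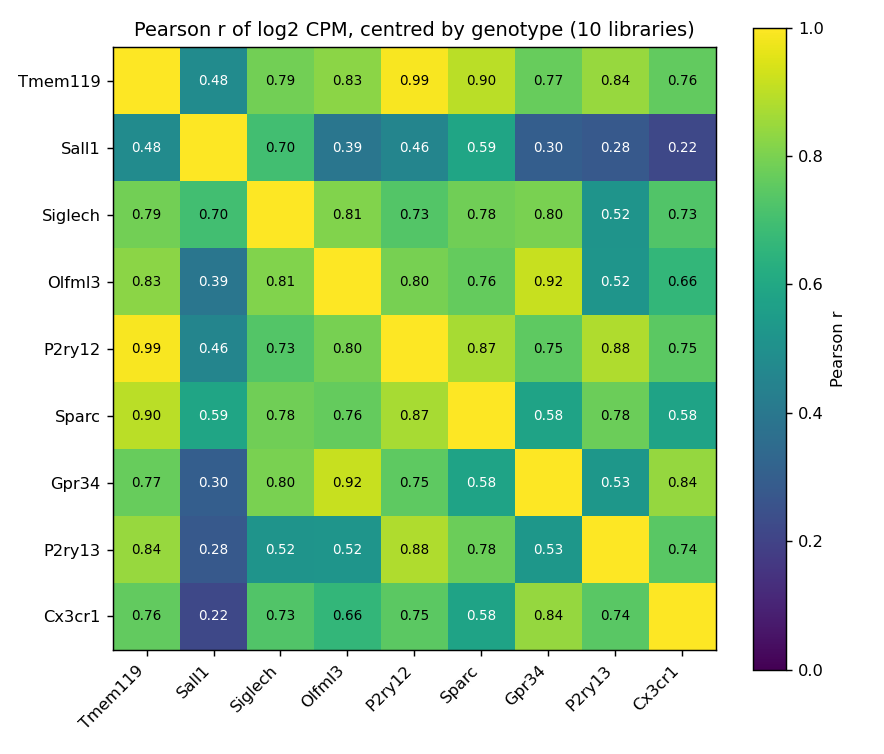
Pearson r of log2 CPM between members over 10 libraries, after removing the mean of each genotype, coloured from 0 to 1. All 36 pairs are positive, from 0.218 (Sall1 with Cx3cr1) to 0.991 (Tmem119 with P2ry12), and the row of Sall1 is the weakest.

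Of 6442 other genes with a mean of at least 20 CPM, the 5 whose log2 CPM followed Tmem119 most closely over the 10 libraries included Tgfbr1, Cd9, Plxdc2 and Pmepa1. Their Pearson r was 0.973, 0.964, 0.958 and 0.955, and without Cre-Cre 1 and WT 3 it was 0.959, 0.946, 0.918 and 0.944. Among the members, Olfml3 ranked 7, Sparc 10 and Siglech 14 in the same order, while P2ry12 ranked 56, Cx3cr1 99, Gpr34 322 and P2ry13 2248. The genes closest to P2ry13 were others: Kansl1, Tpbgl, Prmt1, Tmem41b and C87436, with r from 0.915 to 0.930. Without WT 1 and WT 3 their r was 0.763 to 0.873. These values describe 10 libraries that include the difference between genotypes.

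A list of 34 further microglia genes, some of which border macrophages also express, was set beside the members. All 34 were tested and 0 passed in Cre-Cre over WT (edgeR, adjusted p under 0.05). Their median log2 fold change was -0.21, with 20 of 34 below 0, against 48.9% of all tested genes. At an unadjusted p under 0.05, 7 were lower and 4 higher, against 2.96% and 4.56% of all genes. The most abundant were Csf1r, the receptor that keeps macrophages alive, at 0.18 ± 0.07, the complement genes C1qc and C1qb, at 0.17 ± 0.08 and 0.05 ± 0.07, and Cst3, a protease inhibitor, at -0.21 ± 0.11. Their summed level was 59521 to 65004 CPM in Cre-Cre, 63041 to 64109 CPM in Cre-pos and 57031 to 72378 CPM in WT libraries.

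Tgfbr1, the type I receptor of TGF-beta and among the genes closest to Tmem119, was at 223 to 252 CPM in Cre-Cre, 359 to 431 CPM in Cre-pos and 368 to 507 CPM in WT libraries, with a log2 fold change of Cre-Cre over WT of -0.83 ± 0.13 (edgeR, adjusted p = 0.069). All its Cre-Cre libraries were below the other 6. Its likeness to Tmem119 was taken over the same libraries and includes the genotype difference, so this is not a separate observation. Of all tested genes, 3.57% were lower in every Cre-Cre than in every WT library, and 3.72% lower than in every Cre-pos library. Further genes of the list that were lower at an unadjusted p under 0.05, named after their values were seen, included Selplg (-1.37), Rtn4rl1 (-2.19), Ecscr (-2.12) and Trem2 (-0.33). Ecscr was scarce, at 1.57 to 6.78 CPM in Cre-Cre and 3.40 to 33.4 CPM in WT libraries. Those higher at that p were Ltc4s (0.42), Rnase4 (0.31), Entpd1 (0.30) and Csf1r (0.18).

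**Figure D4:**
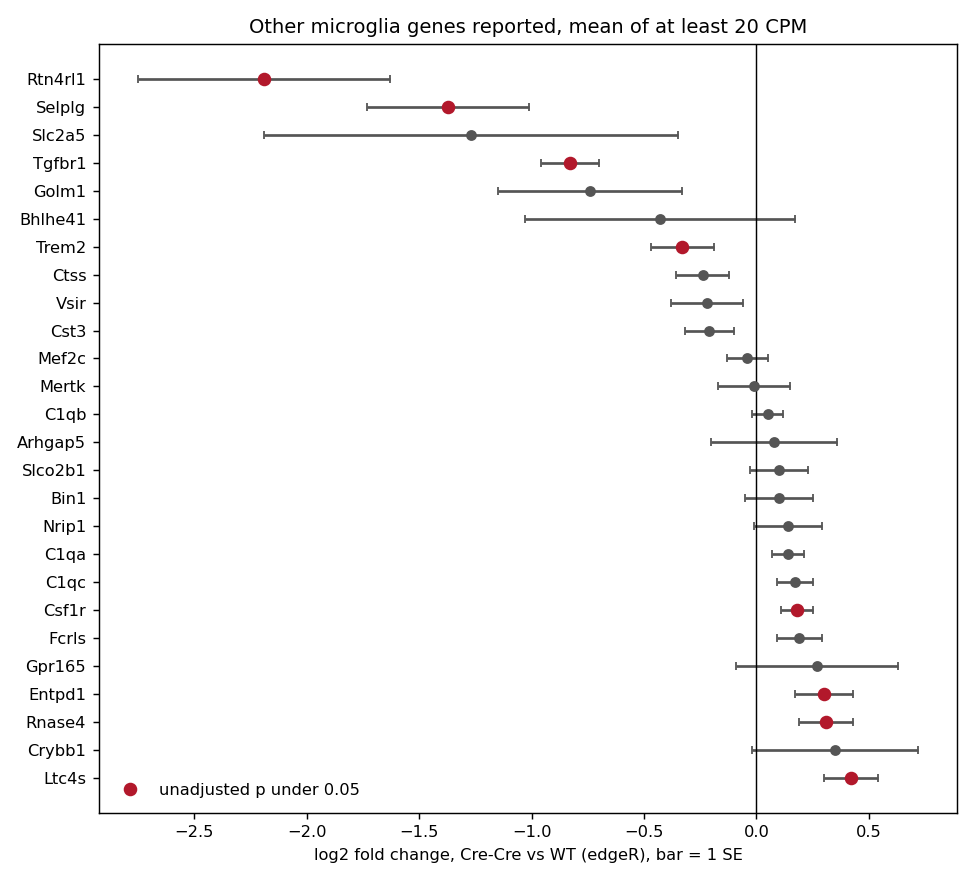
Fitted log2 fold change (edgeR) of Cre-Cre over WT, with bars of 1 SE, for 26 of the other microglia genes, each with a mean of at least 20 CPM. Red points mark the 8 of these genes with an unadjusted p under 0.05, from Rtn4rl1 at -2.19 to Ltc4s at 0.42; none passed the adjusted threshold.

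In the TGF-beta pathway, on which microglial identity depends, 13 of 16 listed genes were tested and 0 passed in Cre-Cre over WT. Their median log2 fold change was 0.09. Nrros, which presents TGF-beta1 on myeloid cells, was at 0.48 ± 0.18, Tgfbr2, the type II receptor, at 0.09 ± 0.12, and the ligand Tgfb1 at 0.27 ± 0.40. Among partners of Sall1 and lineage factors, 13 of 14 were tested and 0 passed, with a median of -0.21. Mef2c and Maf, both factors of macrophage identity, were at -0.04 ± 0.09 and 0.05 ± 0.17, Irf8 at -0.40 ± 0.13 and Spi1, which encodes PU.1, at 0.09 ± 0.13.

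Among 19 purinergic and lysophospholipid partners of P2ry12, P2ry13 and Gpr34, 11 were tested and 0 passed, with a median of -0.33. The 4 most abundant were P2ry6, P2rx7, P2rx4 and Entpd1, at 0.05 ± 0.12, 0.30 ± 0.12, 0.21 ± 0.12 and 0.30 ± 0.13. Among the ligand of Cx3cr1 and related chemokine receptors, 6 of 8 were tested and 1 passed. Ccr2, the receptor by which monocytes leave the marrow, fell to 5.72 to 9.29 CPM in Cre-Cre libraries, against 68.0 to 161 CPM in WT libraries, with a log2 fold change of -4.18 ± 0.36 (edgeR, adjusted p = 0.00216). It was at 35.1 to 57.9 CPM in Cre-pos libraries. Ccr1 was at 0.04 ± 0.15. Among 16 relatives and matrix partners of Sparc and Olfml3, 9 were tested and 0 passed, with summed levels of 43.4 to 68.9 CPM in Cre-Cre, 62.5 to 72.7 CPM in Cre-pos and 39.6 to 67.9 CPM in WT libraries.

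Of 19 genes of disease-associated microglia, a state seen near amyloid plaques, 18 were tested and 0 passed. Their median log2 fold change was -0.48, with 6 lower and 2 higher at an unadjusted p under 0.05, against 2.96% and 4.56% of all genes. The abundant lysosomal proteases Ctsb and Ctsd were at 0.30 ± 0.08 and -0.14 ± 0.17, the signalling adaptor Tyrobp at 0.08 ± 0.10 and the tetraspanin Cd63 at 0.21 ± 0.08. Cd9, another tetraspanin and among the genes closest to Tmem119, was at 16.1 to 36.4 CPM in Cre-Cre, 82.7 to 130 CPM in Cre-pos and 94.6 to 213 CPM in WT libraries, with -2.35 ± 0.35 (edgeR, adjusted p = 0.0567). Like that of Tgfbr1, its likeness to Tmem119 was taken over the same libraries, so its low Cre-Cre values are not a separate observation.

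The other markers measured in the same libraries moved as follows. Of the 20 border macrophage markers, Lyve1, the hyaluronan receptor, rose to 1048 to 1260 CPM in Cre-Cre libraries, against 628 to 638 CPM in WT libraries (edgeR, log2 fold change 0.85 ± 0.10, adjusted p = 0.0215). Mrc1 and the inhibitory lectin Clec12a fell, with log2 fold changes of -2.83 ± 0.11 and -1.22 ± 0.17 (edgeR, adjusted p = 1.28e-06 and 0.0490). The median of the 20 was 0.32, and 10 were higher and 2 lower at an unadjusted p under 0.05, against 4.56% and 2.96% of all genes. So the median of the microglia identity genes lay below 0 and that of the border macrophage markers above it in the same libraries. The members and lists were chosen with earlier results of these data known, so this contrast is no separate support. The 34 further microglia genes had a median of -0.21, and the shared members P2ry13 and Cx3cr1 were at 0.17 and -0.17. What part a change in the mixture of cells has in the members' values was not tested.

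Among other blood cells, summed monocyte markers were at 19.2 to 77.3 CPM in Cre-Cre, 88.6 to 97.1 CPM in Cre-pos and 204 to 270 CPM in WT libraries, with Chil3 and F10 of 10 at 0 throughout. Most of this was Ccr2, averaging 7.12, 49.7 and 129 CPM in the same order, and Ms4a4c, averaging 35.3, 29.7 and 75.9 CPM. The sum therefore largely repeats the Ccr2 values given above. Ly6c2, another marker of the list, averaged 1.04, 6.60 and 2.58 CPM. Summed B cell markers were at 270 to 444 CPM in Cre-Cre, 369 to 480 CPM in Cre-pos and 503 to 792 CPM in WT libraries, and most of this was Ighm, an immunoglobulin heavy chain. Both sums were lower in every Cre-Cre library than in every WT library, as were 4 of the members. The part of these cells in the members' values was not tested. Dendritic cell markers were at 77.6 to 227 CPM in Cre-Cre, 142 to 204 CPM in Cre-pos and 121 to 155 CPM in WT libraries. T and NK cell markers were at 154 to 250 CPM in Cre-Cre, 128 to 154 CPM in Cre-pos and 141 to 189 CPM in WT libraries, with Cd4 the largest part in the mean of each genotype. Neutrophil markers were at 572 to 1148 CPM in Cre-Cre, 292 to 542 CPM in Cre-pos and 314 to 426 CPM in WT libraries, with S100a8, Ly6g, Retnlg and Mmp8 of 10 at 0 throughout. Most of that sum was Mmp9, a matrix protease, at 485 to 1050.0 CPM in Cre-Cre, 225 to 390.0 CPM in Cre-pos and 190.0 to 317 CPM in WT libraries, with a log2 fold change of Cre-Cre over WT of 1.41 ± 0.30 (edgeR, adjusted p = 0.262). Csf3r, the other neutrophil marker tested, was at -0.07 ± 0.29.

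Among cells of the brain tissue, summed astrocyte markers were at 49.5 to 92.7 CPM in Cre-Cre, 45.4 to 77.1 CPM in Cre-pos and 16.9 to 102 CPM in WT libraries. Of these, Gja1, a gap junction gene, rose (edgeR, adjusted p = 0.0315), with 3.78 to 13.5 CPM in Cre-Cre and 8.89 to 13.5 CPM in Cre-pos libraries and no count in WT libraries. Neuronal markers were at 9.19 to 28.2 CPM in Cre-Cre, 8.07 to 28.9 CPM in Cre-pos and 4.40 to 20.9 CPM in WT libraries. Oligodendrocyte markers were at 140 to 278 CPM in Cre-Cre, 193 to 254 CPM in Cre-pos and 270 to 336 CPM in WT libraries, with Sox10 of 12 at 0 throughout. Erythroid markers ran from 1.45 to 902 CPM in Cre-Cre, 0.0924 to 127 CPM in Cre-pos and 2.94 to 191 CPM in WT libraries. Immediate early genes, which dissociation can induce, summed to 1044 to 1565 CPM in Cre-Cre, 1463 to 1837 CPM in Cre-pos and 1147 to 1783 CPM in WT libraries, and their median log2 fold change of Cre-Cre over WT was -0.21.

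**Figure D5:**
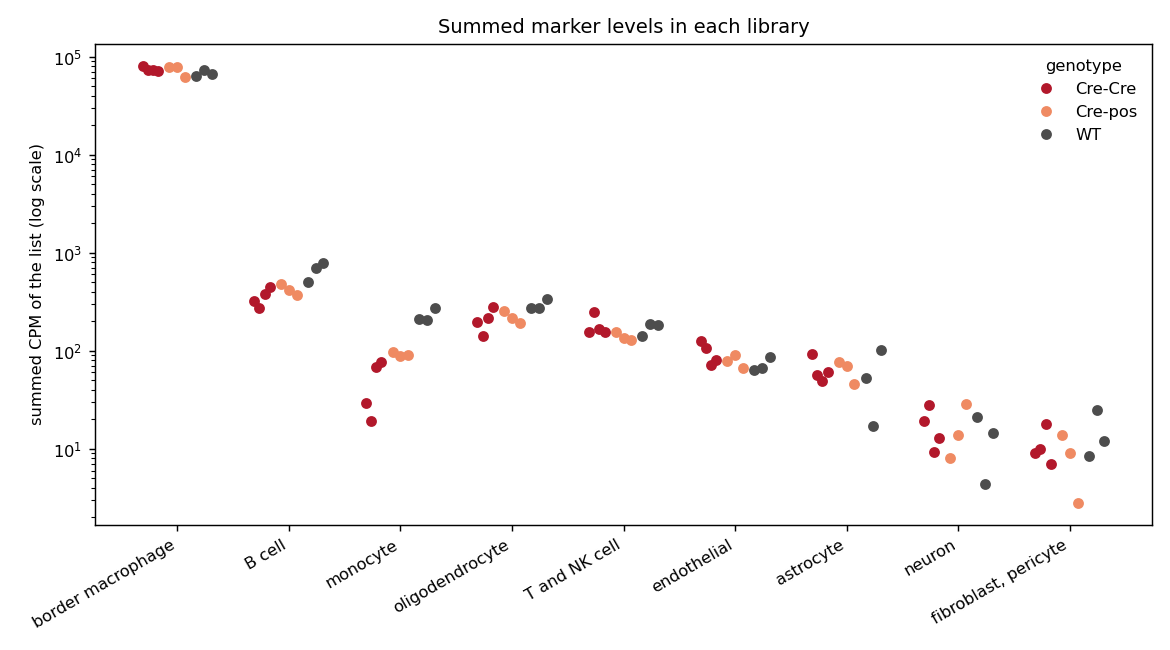
Summed level in CPM (log scale) of 9 marker lists in each library, with Cre-Cre left of Cre-pos and WT. Monocyte markers, mostly Ccr2 and Ms4a4c, lie at 19.2 to 77.3 CPM in Cre-Cre and 204 to 270 CPM in WT libraries. Border macrophage markers lie above the other lists plotted, which are B cell, monocyte, oligodendrocyte, T and NK cell, endothelial, astrocyte, neuron, and fibroblast and pericyte markers. The 34 further microglia genes, with summed levels of 57031 to 72378 CPM, are not plotted.

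Some members share their locus with other genes, and the kit does not mark strand. P2ry12 and P2ry13 lie on chromosome 3 within Med12l, a Mediator subunit gene on the opposite strand, and 9 exon bases of P2ry12 overlap it in GENCODE vM21. Med12l itself had a log2 fold change of Cre-Cre over WT of -0.14 (edgeR, adjusted p = 0.999). Gpr34 lies on the X chromosome within Cask, on the opposite strand, with 0 shared exon bases, and Cask was at 0.02 (edgeR, adjusted p = 0.999). Cx3cr1, on chromosome 9, shares 78 exon bases with Gm33858 on the opposite strand, which was at -1.42 (edgeR, adjusted p = 0.699). Reads from such shared bases cannot be told apart. Tmem119 (chromosome 5), Siglech (7), Olfml3 (3), Sparc (11) and Sall1 (8) overlap no other gene's exons in that annotation. All 9 members are protein-coding.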

How the data were processed

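Bulk RNA sequencing measured sorted CNS-associated macrophages of 4 Cre-Cre, 3 Cre-pos and 3 WT mice, all of 1 batch label. Groups came from the sample titles and genotypes. The authors deposited whole-number counts, 1 row for each gene symbol and 1 column for each mouse. Libraries were made with SMARTer Ultra Low Input v4, which does not mark strand, and Nextera XT, per the labels' protocols. The submitters' processing notes name featureCounts 2.0.2, STAR 2.7.8a and bcl2fastq 2.20. Build, annotation, strand setting and sort gate: not given in the sources used here.

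Genes were filtered with filterByExpr (minimum count 10, minimum total 15), which kept 14023 genes and 99.9% of counts. The main test was edgeR 4.0.16's robust quasi-likelihood test with TMM factors (R 4.3.3), fitted to all 10 libraries by genotype. Benjamini-Hochberg adjustment covered all tested genes, with calls at an adjusted p under 0.05. SE is the log2 fold change over the square root of F. Log2 CPM used a prior count of 2. Correlations and differences of single genes were tested by permutation (100000 resamples, or exact). Pair p-values were adjusted over 36 pairs. Whether the numbered mice came from separate litters is not stated, so p-values measure the spread between these samples. The members had at least 63 counts per library, and PCR reads are not independent molecules. Exon lengths and overlaps came from GENCODE vM21 and promoters from RefSeq on GRCm38.p6.

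The members and lists were chosen with earlier results of these data known. The text names all 9 members, Mrc1, up to 4 of the most abundant genes of a list and any called, the 5 genes closest to Tmem119 and to P2ry13, and genes sharing a member's locus. Others were chosen after their values were seen. Some of the genes so chosen, or held by the lists, are left unreported here. Alternatives were no count filter, a stricter filter (1 CPM in 3 libraries, mean count 10), the size factors of DESeq2, DESeq2 1.42.0 itself, limma-voom 3.58.1, no robust estimation, the title letter as covariate, the replicate number as a block, 2 genotypes only, and each library left out. Counts of members below 0 or at an unadjusted p, and the letter by genotype term, were added after seeing the data. The fits were tested on simulated data. Figures were drawn with matplotlib 3.10.9.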

Additional observations from a re-analysis of the deposited data

How the results depend on the processing

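Replicate numbers did not pair the libraries: same-numbered libraries had correlations of -0.0520 to 0.0962 between their deviations, and 1 of 3, 1 of 2 and 0 of 3 correlated best with their own number. With the replicate block, edgeR called 1 gene in Cre-Cre over WT, 1 in Cre-Cre over Cre-pos and 0 per allele copy, against 9, 3 and 6 without it, and no member. No member was called in a main comparison, so no call could be lost. Of 711 alternative values of single members, 668 kept their direction and call, 28 turned sign and 11 passed the adjusted threshold only in the alternative. The other 4 were the exact permutation test of Tmem119, Sall1, Siglech and Olfml3 (p = 0.0286, unadjusted). Members called in Cre-Cre over WT numbered 1 with no count filter (Tmem119, adjusted p = 0.0485, among 12 called of 22778 genes), 3 with DESeq2 (Tmem119, Sall1 and Olfml3) and 2 with the title letter as covariate (Tmem119 and Olfml3, adjusted p = 0.0433 and 0.0347). DESeq2 called 2 in Cre-Cre over Cre-pos and 3 per allele copy. All genes called numbered 290, 236, 123 and 179 by DESeq2 in Cre-Cre over WT, Cre-pos over WT, Cre-Cre over Cre-pos and per copy, where edgeR called 9, 0, 3 and 6. In Cre-pos over WT, 336 genes were lower and 480 higher by edgeR at an unadjusted p under 0.05. Genes called at an adjusted p under 0.05 numbered 17 with the letter in Cre-Cre over WT, 1 with the letter or no robust estimation in Cre-Cre over Cre-pos, 12 with limma-voom per copy, and 2, 1 and 2 with 2 genotypes only in Cre-Cre over WT, Cre-Cre over Cre-pos and per copy. With a library left out they ranged from 2 to 12, 1 to 2 and 2 to 6 in those comparisons. Members fitted below 0 in Cre-Cre over WT ranged from 5 to 9, and those lower at an unadjusted p from 3 to 7 in Cre-Cre over WT and from 2 to 7 in Cre-Cre over Cre-pos. Pairs passing by the pooled r, not centred by genotype, ranged from 7 (without WT 3) to 25 with a library left out, against 21 over all 10. Of Cre-Cre over WT, the leave-out range was -0.68 to 0.06 for P2ry12, -0.42 to 0.17 for Gpr34, -0.02 to 0.45 for P2ry13 and -0.30 to 0.04 for Cx3cr1. P2ry12 was at 0.08 among libraries lettered m and P2ry13 at -0.37 among those lettered f. Of Cre-pos over WT it was -0.62 to 0.33 for Tmem119, -0.84 to 0.17 for Sall1, -0.31 to 0.28 for Siglech, -0.91 to 0.09 for Olfml3, -0.25 to 0.49 for P2ry12, -0.90 to 0.34 for Sparc, -0.23 to 0.44 for Gpr34 and -0.07 to 0.41 for P2ry13. P2ry12 was at 0.04 with limma-voom or the letter and 0.18 with the block, and Sparc at 0.09 with the block. Of Cre-Cre over Cre-pos, P2ry13 ranged from -0.05 to 0.11 (-0.01 with the block) and Gpr34 from -0.47 to 0.01. Per allele copy, P2ry13 ranged from -0.01 to 0.20 and Gpr34 from -0.21 to 0.04. The causes of these differences were not tested. The lowest count of a member was 63, and whether depth or the number of mice limits the calls was not tested.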
